A study of Komagataella phaffii GS115 with 3 samples.

Results

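A set of 140 genes of the yeast Komagataella phaffii stood at a higher transcript level in an hmt-deficient strain and near their untreated level after hydrogen peroxide (H2O2). They are 140 of the 5040 genes measured. The series holds 3 RNA-seq libraries, 1 per group: strain GS115 in regular culture (untreated), GS115 treated with H2O2, and an hmt-deficient derivative of GS115 in regular culture without H2O2. The background is GS115 in each library, which is a histidine auxotroph in wide use as an expression host. The labels give the hmt deficiency no locus tag and no allele, and the sources used here state neither how the strain was made and from how many clones nor the dose and time of H2O2. It is called the deficient strain below. No group has a replicate, so no difference can be set against the spread between cultures and no p-value between conditions was computed.

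The members were chosen on the measured levels themselves. A member reached 10 FPKM (fragments assigned to a gene per kilobase of its length, relative to the fragments of the library) in at least 1 library. Its log2 ratio of hmt-deficient over untreated, taken on FPKM plus 1, was 1 or more, and its log2 ratio of H2O2-treated over untreated lay between -0.5 and 0.5. All differences among the 3 levels of a member are therefore descriptions of the selection and are not tested. The name "higher in the hmt-deficient strain" holds by this rule, against 1 untreated culture that both ratios share.

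Komagataella phaffii can grow on methanol, which its peroxisomes oxidise with the release of H2O2, and catalase breaks that H2O2 down. Added H2O2 is an oxidant to which yeasts respond by changing the transcription of many genes, both of peroxide defence and of growth. The level of a transcript is set by its synthesis and its decay, and FPKM gives that level relative to the other transcripts of the same library. The genes carry locus tags only (PAS, a chromosome or contig, and a number): neither the tables nor the reference table used pairs a tag with a gene name or product, so no member is given a function here.

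The 3 libraries held 15358148 fragments (untreated), 22355544 (with H2O2) and 18281679 (deficient strain), as recovered from the FPKM values. At the median gene length of 1197.5 bp, 10 FPKM stood for 184, 268 and 219 fragments in the same order. The median log2 ratio to untreated over the 4998 genes past the minimum was -0.38 with H2O2 and -0.07 in the deficient strain. Each library averages over a whole culture, so a higher level in every cell and a large rise in a share of the cells cannot be told apart.

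Of all genes with 10 FPKM or more in the untreated or the deficient library, 11.1% were at least 2-fold higher in the hmt-deficient one, 554 genes in all. Because the rule used this contrast, nothing is read from that share. The 140 members are 25.3% of these 554. The rest divided into 243 genes that were also at least 2-fold higher with H2O2, 94 with a log2 H2O2 ratio above 0.5 and below 1, and 77 with a ratio below -0.5. Counted the other way, the H2O2 window held 36.9% of the genes at 10 FPKM in either of the untreated and H2O2-treated libraries. Over genes at 10 FPKM in any library it held 1840, of which 140 (7.61%) were members and 88 (4.78%) were 2-fold or more lower in the deficient strain, a direction taken by 11.0% of all genes in that contrast. The whole rule kept 2.80% of the 4998 genes past the minimum.

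**Figure D1:**
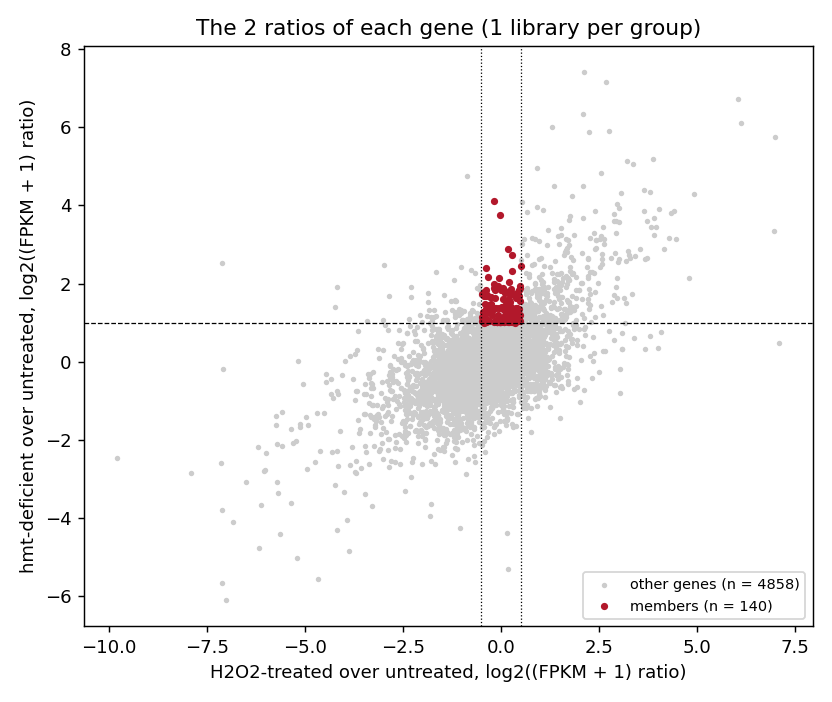
Log2 ratio of FPKM plus 1 for hmt-deficient over untreated (vertical) against H2O2-treated over untreated (horizontal), 1 point per gene past 10 FPKM. The 140 members (red) fill the band between the dotted lines at -0.5 and 0.5 above the dashed line at 1, most of them close to that line, and other genes are grey.

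The members were spread over a wide range of starting levels. In untreated GS115 they ran from 2.93 to 3911 FPKM with a median of 47.3, a little under the 70.6 FPKM median of all genes past the minimum. After H2O2 the members' median was 50.2 FPKM, and in the deficient strain it was 140.0 FPKM. There were 39 members at 100 FPKM or more in untreated GS115, 43 with H2O2 and 85 in the deficient strain. In total 46 members crossed 100 FPKM from untreated to hmt-deficient, and 7 did so from untreated to H2O2-treated. The rule sets most of this contrast, as it asks for 2-fold or more in the first comparison and within about 1.41-fold in the second. Together the members held 1.91% of the summed FPKM untreated, 1.77% with H2O2 and 5.31% in the deficient strain, or 1.53%, 1.51% and 4.38% without the highest of them.

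Few members were near silent at the start. In untreated GS115, 3 of 140 stood under 5 FPKM (2.14%, against 1.12% of all genes past the minimum) and 112 stood at 20 FPKM or more. Among the 243 genes higher in both comparisons, 44 (18.1%) started under 5 FPKM. These shares depend on the 10 FPKM minimum, so nothing is read from their differences. A gene that starts under 5 FPKM and stays in the H2O2 window can pass it only through the deficient strain. The 243 genes can pass it with H2O2 too. Of the 1700 genes in the window that are not members, 0 started under 5 FPKM. When all genes past the minimum were put into 5 equal bins of untreated level, members made up 4.7%, 3.0%, 2.0%, 1.6% and 2.7% of the genes from the lowest bin to the highest. The lowest bin ended at 33.7 FPKM and the highest began at 179.7 FPKM. The median log2 ratio was 1.34 for the members of the lowest bin and 1.19 for those of the highest. The rule cuts every ratio at 1, and the untreated level is part of the ratio. No relation between difference and starting level, or lack of one, is therefore read from these medians.

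**Figure D2:**
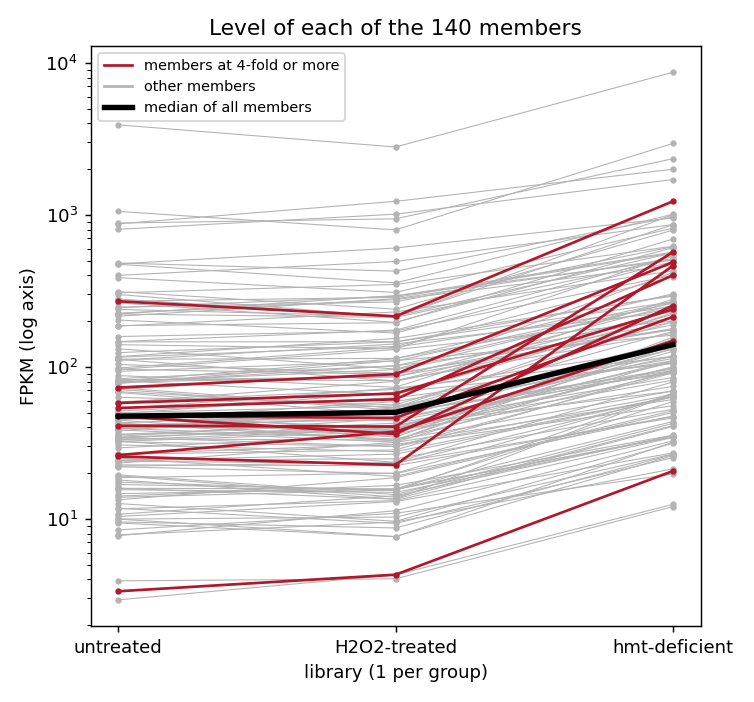
FPKM of each of the 140 members in the 3 libraries (untreated, with H2O2, hmt-deficient) on a log axis, 1 line per gene. The median (black) runs from 47.3 to 50.2 to 140.0 FPKM, and the 10 members at 4-fold or more (red) start between 3.34 and 270.1 FPKM.

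Most differences were modest. The FPKM of members in the deficient strain was 2.0 to 18.0 times the untreated level, with a median of 2.52. On the log2 scale 63 of the 140 lay between 1 and 1.25, a further 33 between 1.25 and 1.5, and 34 between 1.5 and 2. At 4-fold or more stood 10 of the 140 members. Of all 554 genes at least 2-fold higher in the deficient strain, 166 were at 4-fold or more, which is 3.33% of all genes tested. Of these 10, 5 were above and 5 below their untreated level with H2O2. None of the 10 was among the 500 highest genes of untreated GS115, and 5 of them were among the 500 highest of the deficient strain. Of all 140 members, 10 and 36 were in these lists. The 10 were picked by the ratio of the same levels, so nothing is read from their places.

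PAS_chr4_0363 had the largest ratio. It stood at 25.7 FPKM untreated, 22.6 FPKM with H2O2 and 463 FPKM in the deficient strain, so the first 2 libraries lay close together and the deficient strain lay far above them. That is 18.0-fold over untreated, with a 95% counting interval of 16.7 to 19.4 from 725 and 15525 fragments. Such intervals are exact and cover counting error only, since 1 culture cannot show the spread between cultures. Among the 5040 genes it moved from rank 4414 untreated and 3917 with H2O2 to rank 394 by FPKM.

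PAS_chr3_0987 was next, at 41.0 FPKM untreated, 40.5 FPKM with H2O2 and 569 FPKM in the deficient strain. The H2O2 level was 0.987 times the untreated one (interval 0.908 to 1.07), and the hmt-deficient level was 13.9 times it (13.0 to 14.8). These 2 genes were the only members past 8-fold.

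PAS_chr3_1074, a short gene of 351 bp, stood at 53.6 FPKM untreated, 61.2 FPKM with H2O2 and 401 FPKM in the deficient strain. Its ratio to untreated was 7.47 (6.61 to 8.47). PAS_chr2-2_0299, of 4455 bp, stood at 73.0, 89.5 and 488 FPKM in the same order, a ratio of 6.68 (6.48 to 6.88). The narrower interval goes with its 4998 untreated fragments, against 289 for PAS_chr3_1074.

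PAS_chr4_0327 stood at 26.2 FPKM untreated, 37.5 FPKM with H2O2 and 148 FPKM in the deficient strain, 5.65-fold over untreated. It is among the members nearest to the upper edge of the H2O2 window, and its H2O2 level was 1.43 times the untreated one (1.37 to 1.49), so for this gene the level with H2O2 was above the untreated level beyond counting error. PAS_chr2-1_0659 showed the opposite lean, with 47.3 FPKM untreated, 36.1 FPKM with H2O2 and 253 FPKM in the deficient strain.

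PAS_chr2-1_0048 was nearly silent in untreated GS115 at 3.34 FPKM, stood at 4.29 FPKM with H2O2 and reached 20.6 FPKM in the deficient strain, a ratio of 6.18 (5.08 to 7.58). PAS_chr4_0147 was already abundant, at 270.1 FPKM untreated, 215 FPKM with H2O2 and 1227 FPKM in the deficient strain, 4.54-fold (4.42 to 4.67). The other 2 members past 4-fold started near the middle of the group. PAS_chr2-1_0020 stood at 47.4, 46.1 and 213 FPKM, and PAS_chr3_0212 at 57.8, 66.7 and 239 FPKM, each in the order untreated, H2O2-treated and hmt-deficient. In all 10 the deficient strain was the highest of the 3, as the rule requires.

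Just under 4-fold on the log2 scale with 1 FPKM added came PAS_chr1-1_0016 (104 FPKM untreated, 90.9 with H2O2 and 417 in the deficient strain), PAS_chr2-1_0324 (139.8, 131 and 541 FPKM) and PAS_chr4_0310 (17.4, 15.3 and 67.3 FPKM). In these 3 genes the level with H2O2 was slightly below the untreated level, for PAS_chr4_0310 within counting error (interval of the ratio 0.744 to 1.04). PAS_FragB_0067 and PAS_chr3_0006, both near chromosome ends, complete the 15 highest ratios and leaned upward with H2O2, as described with the chromosome ends.

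**Figure D3:**
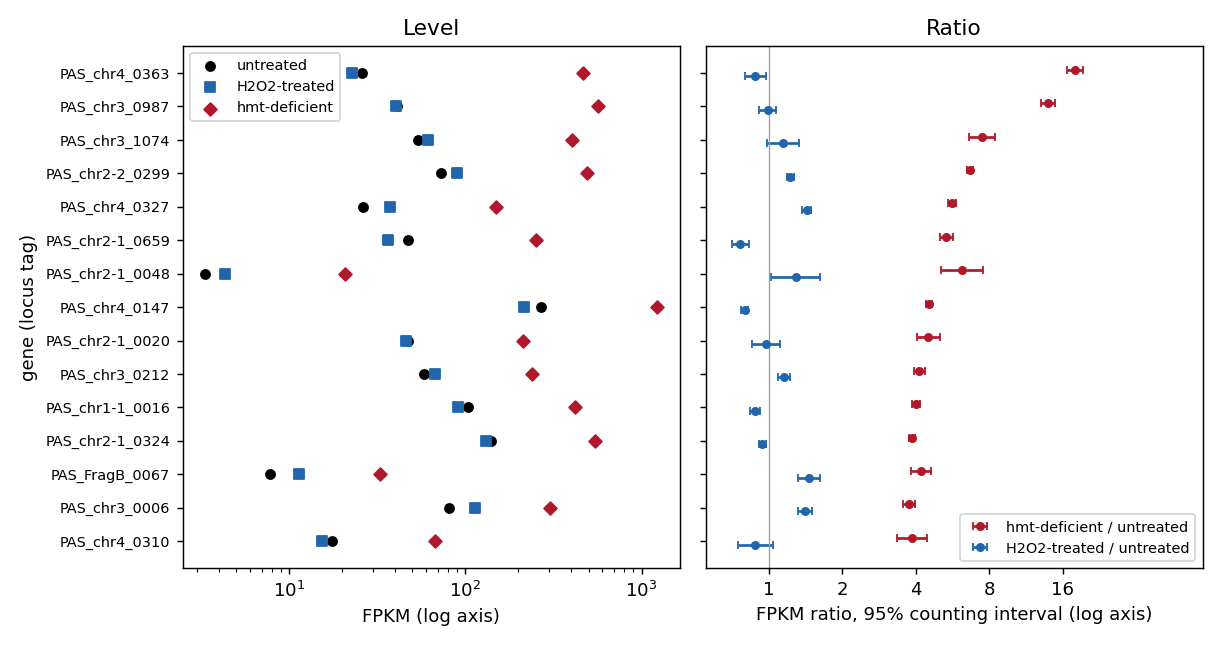
The 15 members with the highest log2 ratio of FPKM plus 1, a ranking that places low genes lower than their plain ratio would (PAS_chr3_0516, at 4.25-fold, is not among them), with FPKM in the 3 libraries (left, log axis) and the FPKM ratios to untreated with 95% counting intervals (right, log axis). The hmt-deficient ratios run from 18.0 for PAS_chr4_0363 down to 3.75 for PAS_chr3_0006, and the H2O2 ratios lie on both sides of 1.

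The 10 members with the highest level in the deficient strain are called the most abundant here. Their hmt-deficient level was 2.0 to 4.54 times the untreated one. They were ranked in the library that the rule requires to be higher, so this range depends on that choice. PAS_chr1-1_0407, a gene of 534 bp, was the 19th highest gene in untreated GS115 at 3911 FPKM, the 79th with H2O2 at 2796 FPKM and the 5th in the deficient strain at 8669 FPKM. Its hmt-deficient level was 2.22 times the untreated one (2.19 to 2.25). PAS_chr2-2_0127 stood at 1054 FPKM untreated, 796 FPKM with H2O2 and 2951 FPKM in the deficient strain, 2.80-fold (2.75 to 2.85). Both lay toward the lower edge of the H2O2 window.

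PAS_chr3_0615 stood at 883 FPKM untreated, 942 with H2O2 and 2341 in the deficient strain. PAS_chr4_0422 (873, 1227 and 1995 FPKM) and PAS_chr1-1_0191 (803, 1011 and 1708 FPKM) were higher with H2O2 than untreated and less than 2-fold higher in the hmt-deficient than in the H2O2-treated library. PAS_chr2-1_0359 had the steepest difference between these 2 libraries among the 10 most abundant members after PAS_chr4_0147, at 299 FPKM untreated, 213 with H2O2 and 1001 in the deficient strain. PAS_chr3_0841 (473, 357 and 1009 FPKM), PAS_chr1-4_0487 (482, 426 and 970 FPKM) and PAS_chr1-3_0122 (476, 605 and 953 FPKM) complete the 10. Of the 10 most abundant members, 8 were already among the 500 highest genes of untreated GS115. The whole group placed 10 genes among those 500 untreated, 10 with H2O2 and 36 in the deficient strain, a contrast that the rule sets in large part.

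At the other end, 10 members stood under 10 FPKM in untreated GS115, between 2.93 and 9.96 FPKM. After H2O2 these 10 stood at 4.03 to 11.3 FPKM and in the deficient strain at 12.0 to 32.6 FPKM, so each reached 10 FPKM in the deficient strain and 3 did with H2O2. The rule fixes most of this. A gene that starts this low and stays in the H2O2 window passes the minimum mainly through the deficient strain. Of the 1700 genes in the window that are not members, 1 started under 10 FPKM. PAS_chr3_0516 had the lowest start of all members, at 2.93 FPKM untreated, 4.28 with H2O2 and 12.4 in the deficient strain, 4.25-fold (3.29 to 5.56). PAS_chr1-4_0554, a gene of 300 bp at 3.91, 4.03 and 12.0 FPKM, rested on 18 untreated fragments, the fewest of any member, and its ratio of 3.08 had an interval of 1.81 to 5.51. PAS_chr3_0102 (7.84, 9.52 and 21.3 FPKM) and PAS_chr2-2_0362 (9.39, 7.62 and 32.0 FPKM) differed in the direction of their small H2O2 difference. PAS_chr3_0302 (8.46, 10.9 and 19.7 FPKM) and PAS_chr1-3_0245 (9.96, 10.3 and 26.7 FPKM) were slightly higher with H2O2 than untreated. PAS_chr3_1000 (9.53, 8.71 and 26.5 FPKM) and PAS_chr1-4_0621 (9.96, 7.65 and 26.0 FPKM) were slightly lower. For PAS_chr3_0102, PAS_chr1-3_0245 and PAS_chr3_1000 the counting interval of the H2O2 ratio held 1, so their direction is within counting error. It did not hold 1 for PAS_chr2-2_0362, PAS_chr3_0302 and PAS_chr1-4_0621. In each of these genes the deficient strain was the highest of the 3 libraries, as the rule requires.

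Counting error alone left the hmt-deficient difference of every member above 1-fold, and 108 of the 140 had a lower bound of 2 or more. The rule chose members on this same ratio at 2-fold or more, which sets most of this. The intervals do not allow for that choice, so these counts add no separate evidence. For H2O2 against untreated, the interval held 1 for 33 members, lay above 1 for 62 and below 1 for 45. The window of 0.5 on the log2 scale thus takes in differences that exceed counting error: "near level" means within about 1.41-fold, not an equal level. For 76 members both intervals lay wholly inside the limits of the rule.

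Against the H2O2-treated library directly, 105 members (75.0%) were at least 2-fold higher in the hmt-deficient one, where 23.0% of all genes tested were. The rule fixes most of this, as it allows no member a log2 ratio under 0.5. At 4-fold or more 17 members stood, against 5.54% of all genes. The largest ratios were 20.4 for PAS_chr4_0363 and 14.1 for PAS_chr3_0987, and the median was 2.61. The other 35 members were less than 2-fold higher, the lowest being PAS_chr2-1_0677 at 77.6 FPKM untreated, 110 with H2O2 and 162 in the deficient strain.

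The limits of the rule cut through a continuous range. Just inside the 2-fold limit were PAS_chr1-3_0122, PAS_chr3_0062 and PAS_chr3_0634, with log2 ratios of 1.0008, 1.003 and 1.005. Just outside it were PAS_chr1-4_0200, PAS_chr2-1_0190 and PAS_chr1-4_0285, with 0.9997, 0.9995 and 0.998. A further 216 genes in the H2O2 window were 1.5-fold to under 2-fold higher. Just above the upper edge of the window lay PAS_chr2-1_0018 (64.1 FPKM untreated, 92.4 with H2O2 and 392 in the deficient strain) and PAS_chr1-1_0378 (140.0, 204 and 2374 FPKM), whose hmt-deficient ratio of 17.0 (16.1 to 17.8) was close to that of PAS_chr4_0363. Just below the lower edge lay PAS_chr1-1_0129 (95.6, 66.6 and 330 FPKM) and PAS_chr1-4_0499 (122, 83.3 and 475 FPKM). The 10 FPKM minimum kept out PAS_chr1-3_0041, at 1.62, 1.19 and 9.17 FPKM.

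Gene length was not used by the rule. Members had a median length of 1335 bp, against 1200 bp for all genes past the minimum and 1182 bp for the 243 genes higher in both comparisons. No test of a length difference was run. Of the members, 17 (12.1%) exceeded 3000 bp, against 6.84% of all genes past the minimum, 1.23% of the 243 genes higher in both and 16.9% of the 77 genes that were higher in the deficient strain and lower with H2O2. Under 600 bp the shares were 12.9% of members and 15.2% of all genes. The 88 genes of the same H2O2 window that were lower in the deficient strain were short, with a median of 522 bp, 55 of them (62.5%) under 600 bp and none over 3000 bp. Length moved with the ratio over the series as a whole as well: the median log2 ratio of hmt-deficient over untreated was -0.39 in the shortest of 5 equal length bins and 0.11 in the longest. Within the H2O2 window, members made up 6.05%, 5.65%, 7.75%, 8.15% and 10.8% of the genes from the shortest to the longest bin. Among genes at 50 FPKM or more in any library the members' median length was 1194 bp against 1122 bp for all such genes, with 9 of 114 members (7.89%) and 5.42% of all such genes over 3000 bp. The part that length has in the choice of members was not tested.

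**Figure D4:**
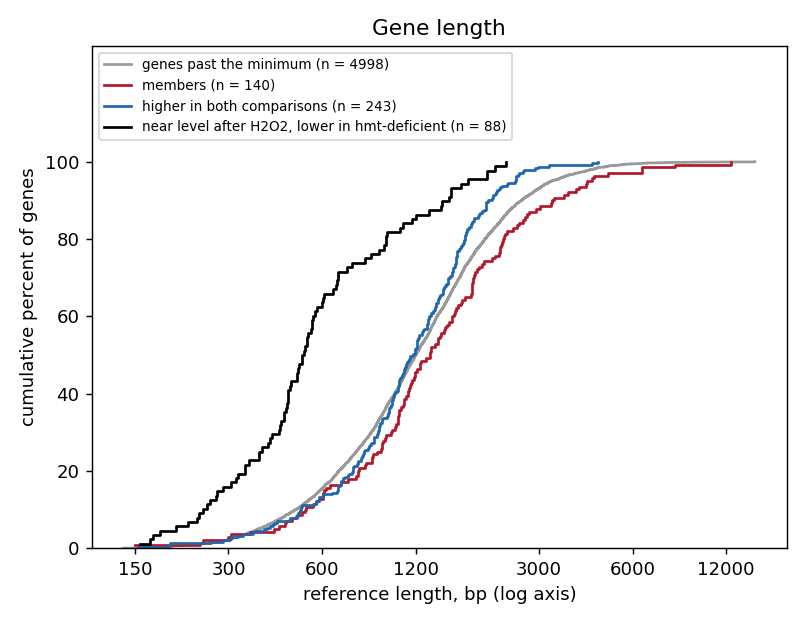
Cumulative percent of genes by reference length in bp (log axis) for the 140 members, the 4998 genes past the minimum, the 243 genes higher in both comparisons and the 88 genes near level with H2O2 and lower in the deficient strain. The curve of the members lies to the right of that of all genes above about 600 bp (medians 1335 and 1200 bp), and that of the 88 genes lies far to the left (median 522 bp).

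The long members were mostly of low level. The 17 genes over 3000 bp stood at 7.75 to 77.6 FPKM untreated, with a median of 26.2, and at 31.3 to 488 FPKM in the deficient strain, with a median of 55.4. Their ratios ran from 2.06 to 6.68 with a median of 2.34, and 2 of them passed 4-fold on the log2 scale, PAS_chr2-2_0299 and PAS_chr4_0327. The longest, PAS_chr2-1_0744 (named for its length after the values were seen), spans 12450 bp and stood at 15.9 FPKM untreated, 13.5 with H2O2 and 40.5 in the deficient strain, 2.55-fold. It overlaps another annotated gene in the reference table, as does PAS_chr3_0634, and reads of overlapping genes may be shared. The 18 members under 600 bp ranged more widely, from 12.0 to 8669 FPKM in the deficient strain, and 4 of the 10 most abundant members were among them.

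Members were found on all 4 chromosomes, as 37 genes of chromosome 1, 46 of chromosome 2, 36 of chromosome 3 and 21 of chromosome 4. These are 2.44%, 3.47%, 3.03% and 2.17% of the genes past the minimum there. The nearest other member was a median of 14 genes away, and 4 members had a member as direct neighbour. Members made up 2.80% of the genes past the minimum, and their spacing was not tested. With both ratios centred on their medians the rule kept 134 genes, of which 19 had another as direct neighbour. The 4 were PAS_chr1-4_0486 (34.9 FPKM untreated, 45.7 with H2O2, 92.4 in the deficient strain) beside PAS_chr1-4_0487, and PAS_chr4_0006 (112, 80.6 and 233 FPKM) beside PAS_chr4_0911 (32.1, 30.0 and 65.7 FPKM).

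The genes beside members were then read in the same libraries. At least 1 direct neighbour was 2-fold or more higher for 51 members (36.4%), against 20.2% of all genes past the minimum and 39.6% of the 414 other genes that were higher in the deficient strain. Of 277 neighbouring positions at 10 FPKM or more, 62 were higher by 2-fold or more in the deficient strain and 18 lower. Members beside members, which are higher by the rule, are included, and 273 positions remain without them. A gene between 2 members counts once for each. Over all genes tested, 11.1% were higher and 11.0% lower. Over the neighbours that are not members the median log2 ratio was 0.15. It was 0.12 for such neighbours of the 414 other higher genes and -0.09 for those of all genes past the minimum. The members are thus close to the other higher genes in this. These differences between shares were not tested.

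The longest row of adjacent higher genes with a member held 8 genes of chromosome 4, far from either end, from PAS_chr4_0357 to PAS_chr4_0949. It contains PAS_chr4_0363, the member with the largest ratio, and PAS_chr4_0359 (18.0 FPKM untreated, 13.5 with H2O2 and 66.6 in the deficient strain). The median of the 8 genes was 4.92 FPKM untreated, 18.0 with H2O2 and 61.1 in the deficient strain. The other 6 genes were all at least 2-fold higher with H2O2 too. PAS_chr4_0357, for example, stood at 1.99, 19.3 and 177 FPKM in the order untreated, H2O2-treated and hmt-deficient. The 2 members are thus the 2 genes of this row that were not higher with H2O2, and they were not the most silent of it at the start. The rule sets the first point, as it admits no member with a log2 H2O2 ratio above 0.5. The untreated level is part of both ratios, so nothing is read from the second.

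**Figure D5:**
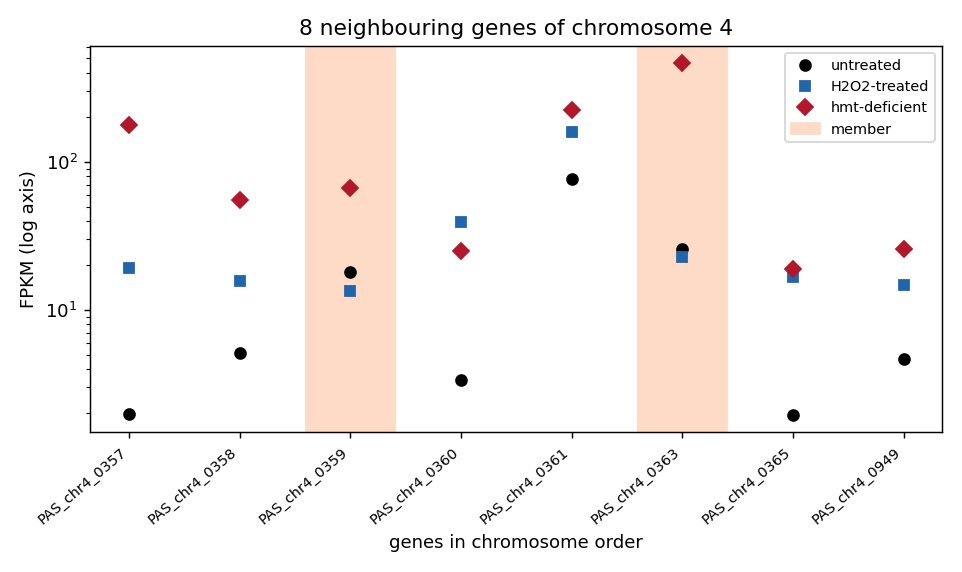
FPKM (log axis) of 8 adjacent genes of chromosome 4 in the 3 libraries (untreated, with H2O2, hmt-deficient), in chromosome order, with the 2 members shaded. In PAS_chr4_0359 and PAS_chr4_0363 the H2O2 value lies below the untreated one, while in the other 6 genes it lies above it. The rule allows a member no log2 H2O2 ratio above 0.5.

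Near the chromosome ends, 8 members (5.71%) lay within the 20 outermost genes of an end, against 3.10% of all genes past the minimum and 8.45% of the 414 other genes higher in the deficient strain. Of the 8, 6 lay within the outermost 5, on 5 of the 8 ends. That is 4.29% of the members, against 3.14% of the 414 other higher genes and 4.12% of the 243 genes higher in both comparisons. Differences between these shares were not tested. Of the 36 genes past the minimum in those outermost positions, 19 were higher in the deficient strain, and 6 of these 19 were members, where 11.1% of all genes tested were higher and 2.80% were members. PAS_FragB_0067 stood at 7.75 FPKM untreated, 11.3 with H2O2 and 32.6 in the deficient strain, 4.20-fold (3.82 to 4.63). PAS_chr3_0006 stood at 80.6, 113 and 302 FPKM, 3.75-fold (3.53 to 3.98). Both were higher with H2O2 than untreated beyond counting error, at 1.46 and 1.40 times the untreated level.

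The other 4 members at the ends differed less. PAS_FragD_0007 stood at 71.1 FPKM untreated, 90.6 with H2O2 and 175 in the deficient strain. PAS_chr2-2_0004, a gene of 306 bp, stood at 25.1, 19.0 and 51.5 FPKM, with a ratio of 2.05 and an interval of 1.65 to 2.56 that reaches below 2-fold. It sits in a row of 6 adjacent higher genes at its end, of which the other 5 fell outside the H2O2 window. PAS_chr4_0006 and PAS_chr4_0911, given above, lie side by side, and PAS_chr4_0911 adjoins PAS_chr4_0008. PAS_chr4_0008 stood at 10.4 FPKM untreated, 1435 with H2O2 and 115 in the deficient strain. With H2O2, PAS_chr4_0006 stood at 0.720 times its untreated level (0.676 to 0.768) and PAS_chr4_0008 far above its own. Each of the 3 genes in this row was higher in the deficient strain.

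Which genes count as near level with H2O2 depends on the zero point of that ratio. Relative to the median of all genes, which lay at -0.38, 77 of the 140 members were within 0.5 on the log2 scale and 63 lay more than 0.5 above it. With both ratios centred on their medians the rule kept 134 genes, of which 77 were among the 140. By rank within each library, which needs no scaling, the members' median place among 5040 genes was 3360 untreated, 2554 with H2O2 and 1269 in the deficient strain, and all 140 ranked higher in the hmt-deficient than in the untreated library. The ranks come from the levels that the rule used. The climb in the deficient strain therefore follows largely from the choice of members and adds no separate evidence.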

How the data were processed

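Per the labels' protocols, ribosomal RNA was removed from TRIzol-extracted RNA before paired-end sequencing. The authors deposited FPKM per gene for each library, per the file headers. Tools listed in the submitters' processing notes, without roles, are HISAT2, featureCounts, HTSeq, Trimmomatic 0.39 and FastQC 0.12.1. Build, annotation, strand setting: not given in the sources used here. Also deposited by the authors, for 2 libraries, was a signal column headed as normalized. It equals FPKM for the H2O2-treated library and is 1.14 times FPKM for the hmt-deficient one; the untreated library has no counterpart, so it served as an alternative only.

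Lengths and gene order came from RefSeq's table for assembly ASM2700v1, in which all 5040 locus tags were present. It names no products (24 product classes matched 0 genes), and near-identical gene copies were not looked for. Fragment totals were fitted so that FPKM times length gave whole fragments. Among genes with lengths divisible by 3 and values precise enough, 96.8% of 3555 (untreated), 94.7% of 341 (with H2O2) and 95.4% of 346 (hmt-deficient) came within 0.1 of a whole fragment. For 8 members the length is not divisible by 3 and fragments are approximate. Exact 95% intervals of FPKM ratios (scipy 1.17.1) cover counting error only. Log2 ratios add 1 FPKM, which understates the change of low genes; folds are plain FPKM ratios, while counts at 2-fold, 4-fold and 8-fold use the log2 ratios. In the untreated file 9 values, none of a member, have 3 or fewer decimals, unlike the rest. The procedure was tested on simulated data with counting error alone, so that test does not bear on the spread between cultures or on any member.

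The members and lists were chosen with earlier results of these data known. The text names the 15 highest ratios, the 10 highest levels in the deficient strain and the 10 lowest starts. It also names neighbouring members, members within 5 genes of an end, and some of the genes nearest each limit. PAS_chr2-1_0744, PAS_chr4_0357, PAS_chr4_0359 and PAS_chr4_0008 were named after their values were seen. No gene was tested by itself, since each group holds 1 library. Alternatives covered the pseudocount, minimum, scaling, fold limit, H2O2 window and counting error.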

Additional observations from a re-analysis of the deposited data

How the results depend on the processing

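Of 76 alternative values of the group's counts and median length, 43 stayed within 1.5 times the count (or 100 bp) and 33 moved, most of them small counts; the cause was not tested, beyond what each setting's construction implies. Members numbered 114 to 195 across the other pseudocounts, minima and scalings, except 226 with the authors' normalized column, which raises the deficient strain alone, against untreated FPKM. They numbered 356 at 1.5-fold, 10 at 4-fold, 65 with an H2O2 window of 0.25 and 268 with a window of 1. The rule asking that whole counting intervals lie inside the limits, chosen after seeing the data, left 76. Centring gave 134 genes, of which 77 were among the 140; TPM gave 195, of which 129 were.

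Members past 4-fold (10) were 16 with a pseudocount of 5, 19 as TPM, 22 with the normalized column, 5 with the narrow window and 32 with the wide one. Members starting under 5 FPKM (3) were 10 with a pseudocount of 5, 11 with no minimum or the wide window, 1 with the narrow window or at 4-fold, and 0 with a minimum of 50 FPKM or whole intervals. Members within 20 genes of an end (8) were 13 at 1.5-fold, 1 at 4-fold, 2 with the narrow window or whole intervals, and 18 with the wide window. Members beside another member (4) were 19 when centred, 10 as TPM or scaled without the 20 highest genes, 12 with the normalized column, 52 at 1.5-fold, 38 with the wide window, and 0 at 4-fold, with the narrow window or with whole intervals. The median length was 1194 bp with a minimum of 50 FPKM, against 1122 bp for all genes past that minimum. Of 135 alternative log2 ratios of named members, 97 stayed within the counting interval, 38 moved, by at most 0.12 and all with TPM or centring, and 0 changed sign. A pseudocount of 0.1 shifted them by up to 0.28, within those intervals.

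At the untreated depth, 32 of the 140 members cannot be placed above 2-fold by counting alone. No paired analysis was possible because each group holds 1 library.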
